A study of Mus musculus with 5 samples.

Results

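The genes described here encode the glycosyltransferases that build the sugar chains of the gut surface and of mucins. They were chosen by name: every row of the deposited count tables whose symbol starts with Galnt, B3gnt, B3galt, B4galt, B4galnt, Gcnt, Fut, St3gal, St6gal, St6galnac, St8sia, C1galt or Mgat and a digit, and that had at least 20 unique molecular identifiers (UMIs) over all 5 libraries. Of 80 matching rows, 58 reached that number and are the members described, among 12675 genes that reached it. The other 22 rows are not described further. Just inside the limit stood B3gnt9 and St6galnac6 with 22 UMIs each and St8sia1 with 25, and just outside it B3gnt5 with 19, B3gnt6 and St6galnac4 with 16 each.

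Mucin-type O-glycans begin when a polypeptide GalNAc-transferase attaches N-acetylgalactosamine to a serine or threonine. Galactose, N-acetylglucosamine, fucose, sialic acid and further N-acetylgalactosamine are then added one at a time in the Golgi, each by its own enzyme. Goblet cells put such chains on secreted mucins and enterocytes on the glycocalyx of the brush border, where they form the sugar layer that microbes meet, and members of the same families also complete N-glycans and glycolipids.

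Single cells of mouse organoids, epithelial cultures grown in a gel, were sorted into 384-well plates and read by SORT-seq, which attaches a UMI to each captured transcript and sequences its 3' end. Each of 5 groups had 1 library. One came from fetal intestinal organoids, genotype WT (called fetal here), and the other 4 from small intestinal organoids: WT, Lkb1 +/- (het), and a pair that is Lkb1 -/- and is told apart in the titles by Bud and Cys. What Bud and Cys stand for is left unexplained by the labels, so they formed separate groups and not replicates. The same culture text, with 50 ng/mL Egf, R-spondin and Noggin, is attached to all 5, and strain, age, number of animals or clones and the site of the Lkb1 edit were not found in the labels. Lkb1 is the kinase encoded by Stk11. With 1 library per group there is no replicate and no test, and every interval below is a 95% interval that covers counting error only.

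The wells kept, those with at least 1000 UMIs, numbered 302 to 371 per library and held 4035219 to 5865507 UMIs. Values are UMIs summed over those wells and scaled to counts per 1000000 (CPM), and because each transcript gives 1 tag, levels of different genes were set side by side without a length correction. Stk11 stood at 16.0, 20.6, 14.1, 11.7 and 9.03 CPM in fetal, WT, het, Bud and Cys organoids. With the site of the edit unknown, a 3' tag does not check the genotypes. The 12 enterocyte markers summed to 3711 CPM in WT, 6861 in het and 1152 in Bud, but to 77.2 in fetal and 25.3 in Cys organoids. Fetal and regenerative markers summed to 12674 CPM in fetal and 11612 in Cys organoids and to at most 579 in the others. Cys, labelled small intestinal, also held 5031 CPM of 8 gastric markers against at most 53.7 elsewhere. Immune, mesenchymal and endothelial markers summed to at most 2.61 CPM in any library. In Cys, 2 wells held over 100000 UMIs each, the larger 452137. In summed values, fewer cells of a type and less RNA per cell cannot be told apart.

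Together the members took 2287 CPM in fetal, 2560 in WT, 3222 in het, 2381 in Bud and 3028 in Cys organoids. The 3 enzymes that cap chains with N-acetylgalactosamine summed to 631 CPM in WT, 641 in het and 579.9 in Bud, against 168 in fetal and 161 in Cys organoids. The 4 enzymes that start core 2 and I branches ran another way, at 121 CPM in WT and 91.0 in Bud but 231 in fetal, 232 in het and 379 in Cys organoids. Enzymes that add sialic acid in alpha-2,6 linkage summed to 56.9 to 70.1 CPM in 4 libraries and to 8.63 in Cys.

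**Figure D1:**
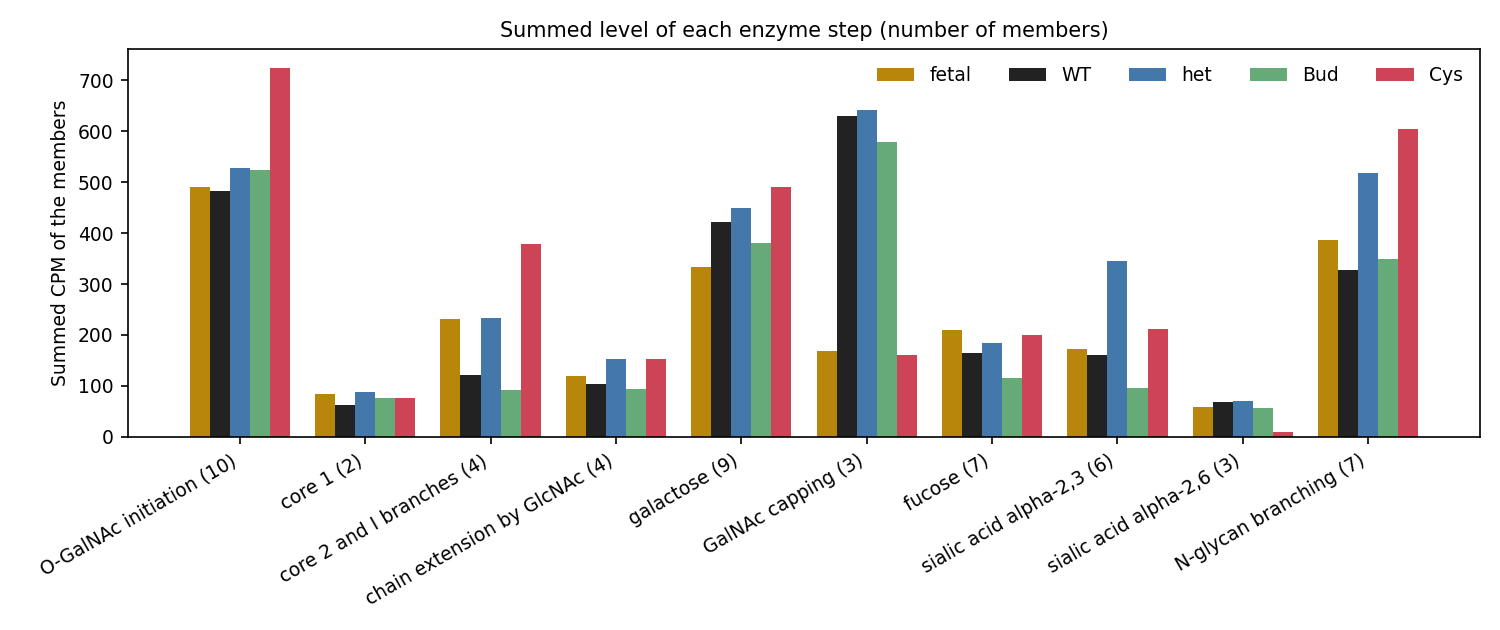
Summed level of the members of each enzyme step (y axis, CPM; the number of members is in parentheses) in the 5 libraries, 1 bar per library, with no error bar because each group has 1 library. GalNAc capping is high in WT, het and Bud (579.9 to 641 CPM) and low in fetal and Cys (168 and 161), and core 2 and I branching is highest in Cys (379).

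A gene was called higher or lower when its CPM ratio was at least 1.5 and the exact interval of the ratio excluded 1, among genes with at least 10 UMIs over both libraries. Of 48 members measured in het against WT, 11 were called higher and 4 lower, where the same rule called 8.43% of all measured genes higher and 8.83% lower. Those 11 are 22.9% of the members, and the median log2 ratio of the members (10 CPM added to both values) was 0.17 against -0.02 over all genes. For Bud against WT, 4 of 48 were higher and 6 lower, against 5.79% and 8.67% of all genes, and the member median of -0.02 lay close to the -0.04 of all genes. Among those 4, St8sia1 had 11 of its 25 UMIs in Bud and reached the member limit of 20 only through them. Set against het, Bud had 5 of 48 members higher and 16 lower, against 8.94% and 11.7% of all genes.

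More members were called in Cys. Of 47 measured against WT, 19 were higher and 15 lower, against 17.6% and 22.0% of all genes, so that 40.4% and 31.9% of the members were called. Against Bud, the other Lkb1 -/- library, 19 of 48 were higher and 14 lower, against 19.2% and 19.5% of all genes. The median log2 ratios of the members were 0.04 and 0.15, with members called in both directions. The median absolute log2 ratio of the members was 0.74 for Cys against WT and 0.31 over all genes. For Cys against het, the median log2 ratio of the members was -0.09 and that of all genes -0.03. The median absolute values were 0.71 and 0.30. The 10 CPM added shrink the ratios of genes with few UMIs, and such genes also have wide intervals. All genes were not matched to the members by level, so the part of level in the differences from all genes was not tested in any comparison.

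Fetal organoids had 22 of 56 members higher and 16 lower than WT, against 29.4% and 22.3% of all genes. Set against fetal organoids, Cys had 14 of 56 higher and 22 lower, against 16.0% and 28.6% of all genes. Galnt14, Fut10, St8sia4, B4galt2, St6galnac6, Fut9 and St3gal2 reached the member limit of 20 UMIs only through fetal organoids. Galnt14, for example, had 38 of its 39 UMIs there. All of them are among the 22 higher in fetal organoids and the 22 lower in Cys. Fut4 and B4galt7, also lower in Cys, passed the limit in the same way. Those calls were partly fixed by the choice of members. The shares of all genes need only 10 UMIs over both libraries. The median log2 ratio of the members in fetal organoids was 0.17 against WT and -0.04 against het. Over all genes it was 0.06 and 0.08. The comparisons with WT share that library, and those of Cys share the Cys library, so they are given side by side and not read as independent of each other.

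**Figure D2:**
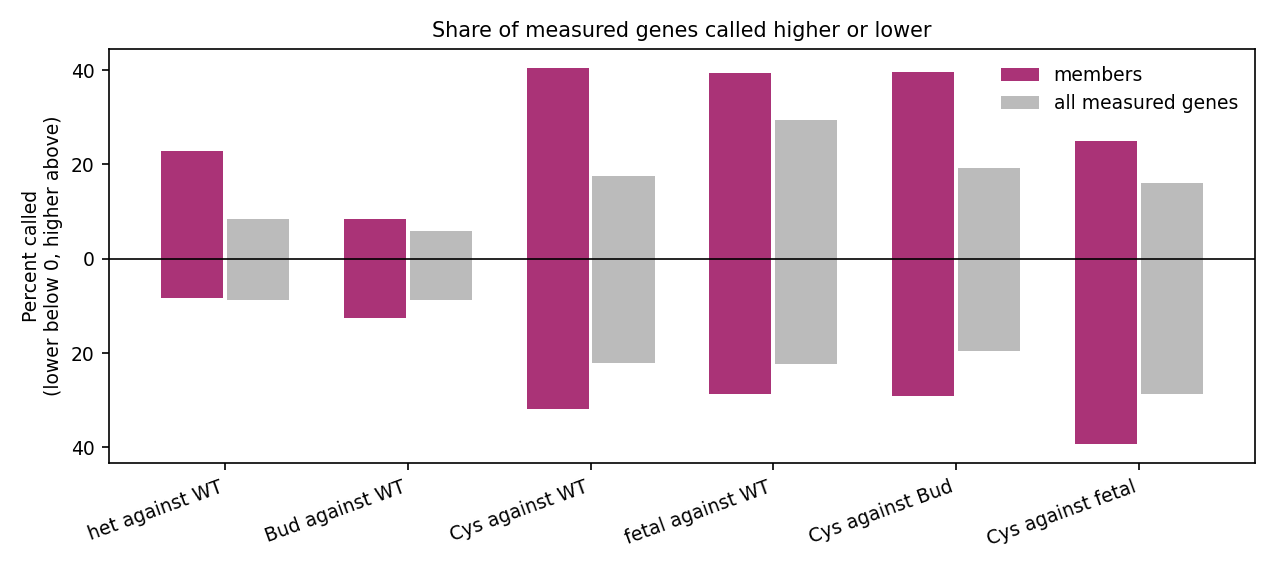
Share of measured genes called higher (bars above 0) or lower (bars below 0), in percent, for the members and for all measured genes in the 6 comparisons. Members exceed all genes most in Cys against WT, with 40.4% higher against 17.6%, and are close to all genes in Bud against WT.

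Sorted by their levels alone, 7 members stood at least 1.5-fold higher in both fetal and Cys organoids than in each of WT, het and Bud, and 8 stood at least 1.5-fold higher in each of WT, het and Bud than in both fetal and Cys. They make up 12.1% and 13.8% of the members, against 9.87% and 8.61% of all 12675 genes. The first group holds Galnt3, Gcnt1, Fut2, Mgat3, St3gal5, St3gal2 and B4galt2, and the second B4galnt2, B4galt4, St6galnac2, Galnt6, B3gnt7, Gcnt4, St3gal3 and Fut1. In Cys, St3gal2 and B4galt2 rest on 7 and 4 UMIs (1.41 and 0.803 CPM), and neither was called higher there than in WT or Bud. Only 4 members, Galnt1, Galnt2, B3gnt2 and Mgat1, stayed within 1.5-fold over all 5 libraries, 6.9% of the members against 16.9% of all genes. These groupings were read from the levels and name members after their values were seen.

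**Figure D3:**
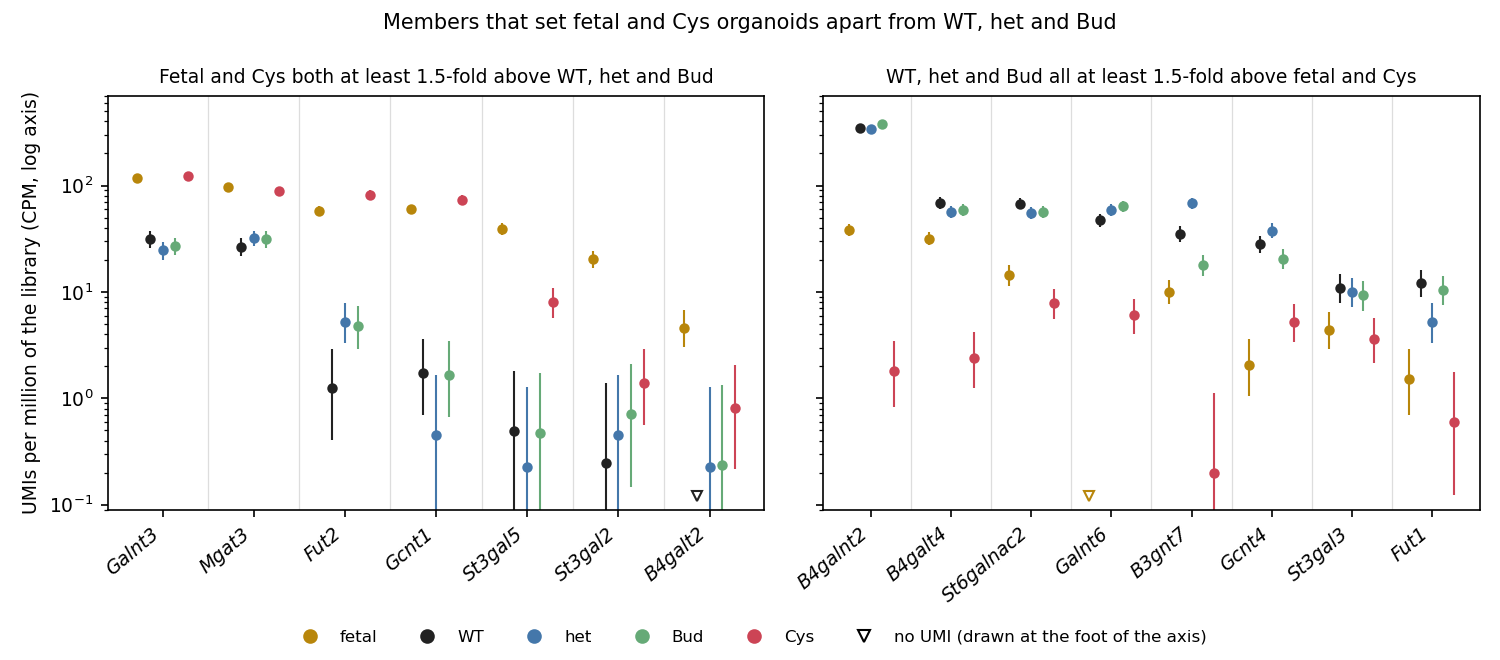
Level in CPM (log y axis), 1 point per library with its exact Poisson 95% counting interval. Left, the 7 members at least 1.5-fold higher in both fetal and Cys than in each of WT, het and Bud. Right, the 8 members with the reverse pattern. An open triangle marks a library with no UMI. Fut2 and Gcnt1 stand at 57.1 to 82.3 CPM in fetal and Cys and at no more than 5.23 elsewhere, while B4galnt2 stands at 343 to 378 CPM in WT, het and Bud and at 1.81 in Cys.

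Among the 10 members that start O-glycans, Galnt3 and Galnt6, close relatives within the family, ran in opposite directions. Galnt3 stood at 119 CPM in fetal and 123 in Cys organoids and at 31.2, 24.6 and 26.9 in WT, het and Bud. It was 3.93-fold higher in Cys than in WT (3.24 to 4.80) and 3.81-fold higher in fetal organoids (3.14 to 4.64). Galnt6 had no UMI in fetal organoids, 6.02 CPM in Cys and 47.1, 58.9 and 63.6 in WT, het and Bud. Its level was thus 7.82-fold lower in Cys than in WT (5.30 to 11.9) and at least 92.1-fold lower in fetal organoids, against a floor of 3 UMIs. A Galnt6 UMI was found in 35.1% of WT cells (29.7% to 40.8%) and 5.57% of Cys cells (3.44% to 8.47%). With 0 of 371 fetal cells, a floor of 3 counts gives a share of 0.809%, and the exact interval reaches 0.989%. Both are bounds on detection in a well, not on expression of Galnt6.

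Galnt7 and Galnt10, which prefer peptides that already carry a sugar, also parted in Cys. Galnt7 was read at 65.5, 92.2, 76.0, 84.3 and 201 CPM in fetal, WT, het, Bud and Cys, and Cys was 2.18-fold above WT (1.93 to 2.46). Galnt10 had 34.4, 36.2, 36.9, 47.2 and 16.1 CPM in the same order, and Cys was 2.25-fold below WT (1.70 to 2.997). Cys was thus the highest library for the one and the lowest for the other. Galnt12 was also highest in Cys at 83.5 CPM, against 26.8 to 31.2 in WT, het and Bud and 13.3 in fetal organoids, 3.12-fold above WT (2.52 to 3.89). Galnt4 was high in het (109 CPM) and Cys (99.97) and low in fetal (35.5), WT (53.0) and Bud (40.7), with het 2.05-fold above WT (1.75 to 2.43). The transferases Galnt1 and Galnt2, by contrast, kept levels from 94.9 to 113 and from 76.9 to 109 CPM over the 5 libraries.

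The next step, core 1, adds galactose to the first sugar through C1galt1 and needs the chaperone C1galt1c1, known as Cosmc. C1galt1c1 stood at 57.1, 42.4, 72.3, 53.6 and 39.3 CPM in fetal, WT, het, Bud and Cys. Only het met the rule against WT, 1.71-fold higher (1.41 to 2.07). C1galt1 was higher in Cys than in WT, 37.5 against 20.3 CPM, 1.85-fold (1.42 to 2.43). Core 3, the other common mucin core, is made by B3gnt6, which stayed below the limit of 20 UMIs.

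Enzymes of the Gcnt family start branches, and they differed widely between libraries. Gcnt1, which makes core 2 on core 1, was nearly silent in WT (1.73 CPM), het (0.455) and Bud (1.67) and stood at 59.7 in fetal and 73.9 in Cys organoids. It was 42.6-fold higher in Cys (20.5 to 107) and 34.4-fold higher in fetal organoids (16.5 to 86.2) than in WT, whose level rests on 7 UMIs. Gcnt3, the mucin-type core 2 enzyme, was expressed in all: 123 CPM in fetal, 80.5 in WT, 169 in het, 56.2 in Bud and 277 in Cys. Het was 2.09-fold (1.83 to 2.39) and Cys 3.44-fold (3.05 to 3.89) above WT, and Cys was 4.93-fold above Bud (4.29 to 5.68). Bud was the lowest of the 5 for Gcnt3, below WT without meeting the rule.

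Gcnt2, which forms I branches on linear chains, was read at 46.5, 10.9, 25.5, 12.6 and 23.3 CPM in fetal, WT, het, Bud and Cys, and was 4.27-fold higher in fetal organoids than in WT (3.10 to 6.01). Its levels in het and Cys lay between those of fetal and WT, 2.34-fold (1.64 to 3.39) and 2.14-fold (1.497 to 3.09) above WT. Gcnt4, a further core 2 enzyme, went the other way: 28.0, 37.8 and 20.5 CPM in WT, het and Bud against 2.05 in fetal and 5.22 in Cys. It was 13.7-fold lower in fetal (7.54 to 27.3) and 5.37-fold lower in Cys organoids (3.48 to 8.56) than in WT. Fetal and Cys organoids were thus high for Gcnt1 and low for Gcnt4, enzymes of the same branch.

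Chain extension by N-acetylglucosamine showed the same contrast. B3gnt3, which extends core 1, stood at 121 CPM in Cys and 78.1 in fetal organoids, against 46.6, 53.5 and 48.1 in WT, het and Bud, and was 2.59-fold higher in Cys than in WT (2.20 to 3.07). B3gnt7, known for chains of keratan sulfate, was read at 10.1 CPM in fetal, 34.9 in WT, 68.3 in het, 17.9 in Bud and 0.201 in Cys. A single UMI was found in Cys, 174-fold below WT with a counting interval of 30.7 to 6923. B3gnt7 was the extension enzyme that separated het and Bud, 1.95-fold above WT in het (1.59 to 2.40) and 1.96-fold below it in Bud (1.47 to 2.62). With equal weight for every well its log2 ratio in het was 0.47 and no longer met the rule. The gene listed as B3gnt1 matched the RefSeq gene B4gat1 on chromosome 19, an enzyme of O-mannosyl glycans. It stood at 26.3 CPM in fetal organoids and 12.6 to 16.3 in the others.

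Of the 9 members that add galactose, B4galt6 was the most abundant. With B4galt5 it makes lactosylceramide, the root of most glycolipids, and these enzymes differed in direction. B4galt6 stood at 181, 214, 222, 192 and 335 CPM in fetal, WT, het, Bud and Cys, 1.57-fold higher in Cys than in WT (1.44 to 1.71). B4galt5 had 19.6, 41.6, 58.9, 26.7 and 11.6 CPM and was 3.58-fold lower in Cys (2.64 to 4.91) and 1.56-fold lower in Bud (1.22 to 2.001) than in WT. Cys was the highest library for B4galt6 and the lowest for B4galt5.

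B4galt4, which extends chains with sulfated N-acetylglucosamine, held steady at 68.6, 56.9 and 59.1 CPM in WT, het and Bud. It stood at 31.7 CPM in fetal and 2.41 in Cys organoids, 2.16-fold (1.79 to 2.62) and 28.5-fold (16.1 to 55.8) below WT. Fetal organoids lay between those 3 libraries and Cys. B4galt3, a galactosyltransferase of N-acetyllactosamine, was read at 32.9, 18.8, 36.9, 24.3 and 29.7 CPM in fetal, WT, het, Bud and Cys. WT was the lowest library for it, and het was 1.96-fold higher (1.48 to 2.61).

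The highest level of any member in any library was that of B4galnt2, which caps sialylated chains with N-acetylgalactosamine to form the Sda antigen and is known for its activity in the gut. It was read at 350.4 CPM in WT, 343 in het, 378 in Bud, 38.5 in fetal and 1.81 in Cys organoids. WT, het and Bud were alike within 1.5-fold and lay far above both others. Its level in Cys, 9 UMIs, was 194-fold below WT (102 to 425), 209-fold below Bud (110.0 to 459) and 21.3-fold below fetal organoids (11.04 to 47.2), and fetal organoids were 9.09-fold below WT (7.90 to 10.5). A B4galnt2 UMI was found in 83.1% of WT cells (78.4% to 87.2%), 24.8% of fetal cells (20.5% to 29.5%) and 2.51% of Cys cells (1.15% to 4.71%). Thinned to 5000 UMIs per cell, with 82, 17 and 73 shallower cells left out, the expected shares were 79.2%, 14.8% and 1.17%.

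Its relative B4galnt1, which makes the gangliosides GM2 and GD2, differed less. It stood at 124, 269, 284, 193 and 157 CPM in fetal, WT, het, Bud and Cys, 2.17-fold lower in fetal organoids (1.97 to 2.38) and 1.71-fold lower in Cys (1.56 to 1.88) than in WT. All 3 capping enzymes measured, B4galnt4 included, were called lower in fetal organoids than in WT, against 22.3% of all genes, and all 3 in Cys, against 22.0%. None differed by the rule in het or Bud.

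The promoters of 2 genes with opposite patterns are shown as RefSeq gives them for build GRCm38.p6, B4galnt2 as the member with the largest loss in Cys and Galnt3 as one high there. Each runs from 250 bases before to 50 after the start used for that window. On the minus strand the RefSeq gene spans begin at 95914960 for B4galnt2 and 66125056 for Galnt3, so both starts used lie inside the spans. B4galnt2 lies at chr11:95914822-95915121 and Galnt3 at chr2:66124744-66125043, both on the minus strand. Capitals mark the only match of the motifs searched, the reverse complement CATTCC of the TEAD motif GGAATG. It begins 21 bases before the start used for B4galnt2 and lies inside the gene span.
B4galnt2: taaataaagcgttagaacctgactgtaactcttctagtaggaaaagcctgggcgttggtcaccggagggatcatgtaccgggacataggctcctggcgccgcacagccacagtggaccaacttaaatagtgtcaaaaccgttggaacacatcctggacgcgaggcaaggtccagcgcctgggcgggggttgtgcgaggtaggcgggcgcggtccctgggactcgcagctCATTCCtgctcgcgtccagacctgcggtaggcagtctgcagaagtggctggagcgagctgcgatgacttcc
Galnt3: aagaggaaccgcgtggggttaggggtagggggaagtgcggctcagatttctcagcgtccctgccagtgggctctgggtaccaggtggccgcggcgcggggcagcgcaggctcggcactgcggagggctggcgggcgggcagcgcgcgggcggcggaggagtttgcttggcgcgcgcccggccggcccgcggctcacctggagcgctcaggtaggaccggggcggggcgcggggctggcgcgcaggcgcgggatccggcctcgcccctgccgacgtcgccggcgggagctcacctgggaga

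In the windows available, 41 of 58 members matched, with 60 windows in all. Read on both strands, GGAATG was in 9 of those windows, 15%, and in 14.7% of all 32851 windows of the same length. The CDX motif TTTATNG was in 3, that of Fut8, Galnt11 and Gcnt2, 5.0% against 10.9%. The CREB palindrome TGACGTCA was in 2 (B4galt3 and Galnt11) against 1.79%, the AP-1 motif TGANTCA in 3 (Gcnt4, Mgat4a and St6gal1) against 7.81% and the HNF4 motif CAAAGTCCA in 1 (B3gnt3) against 0.475% of all windows. A match is a description of these letters and not a bound site. By RefSeq, the spans of 35 of 58 members overlap another gene, among them Galnt4 with Poc1b, B4galnt1 with Slc26a10 and St3gal6 with Dcbld2. It is not known here whether the counting used strand, so the values of such members may hold reads of the overlapping genes.

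Fucosyltransferases make the H and Lewis antigens. Fut2, the secretor enzyme that puts the H antigen on mucosal chains, was read at 57.1 CPM in fetal, 1.24 in WT, 5.23 in het, 4.76 in Bud and 82.3 in Cys organoids. Its level in Cys was 66.4-fold (28.2 to 206) and in fetal organoids 46.1-fold (19.6 to 143) above WT, which had 5 UMIs. A Fut2 UMI was found in 51.5% of fetal cells (46.3% to 56.7%) and 51.8% of Cys cells (46.5% to 57.1%), and in 1.32% to 3.77% of cells of the other libraries. Thinned to 5000 UMIs, these shares were 24.5% and 33.3%, and 0.847% to 2% elsewhere. In het and Bud, Fut2 was 4.22-fold (1.57 to 14.2) and 3.84-fold (1.40 to 13.1) above WT, with 30.4% and 25.0% of its UMIs in 1 cell.

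Fut1, the other H enzyme of this pair, lies beside Fut2 on chromosome 7 (45617606 to 45621059, with Fut2 at 45648591 to 45666394, GRCm38.p6) and had the opposite pattern. It stood at 12.1, 5.23 and 10.5 CPM in WT, het and Bud and at 1.53 in fetal and 0.602 in Cys organoids. Only 3 UMIs were found in Cys, 20.2-fold below WT with a counting interval of 6.51 to 101. Fut9, which makes the Lewis X antigen, was expressed mainly in fetal organoids. It had 39.2 CPM in fetal organoids, no UMI in WT or Cys, and 0.683 and 0.238 CPM in het and Bud, so that the fetal level was at least 52.7-fold above WT and at least 65.1-fold above Cys. Fut2 was high in both fetal and Cys organoids, whereas Fut9 was high in fetal organoids alone. Fut8, which adds the core fucose of N-glycans, was expressed everywhere at 86.9, 139, 159.9, 91.7 and 106 CPM in fetal, WT, het, Bud and Cys. It was 1.51-fold lower in Bud (1.32 to 1.72), a call at the edge of the rule that was lost with TMM scaling (log2 ratio -0.50).

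Sialic acid ends many chains. St3gal4, which caps lactosamine in a step toward sialyl Lewis X, was read at 67.5 CPM in fetal, 61.0 in WT, 235 in het, 13.3 in Bud and 54.2 in Cys. Het was 3.86-fold above WT (3.35 to 4.45) and Bud 4.57-fold below it (3.41 to 6.23), with 50.0% of the Bud UMIs in 1 cell. Fetal and Cys organoids were near WT, though Cys was 4.06-fold above Bud (3.04 to 5.52). The 12 enterocyte markers moved in the same order over WT, het and Bud, at 3711, 6861 and 1152 CPM, and none of them was at 0 there. In fetal and Cys organoids they summed to 77.2 and 25.3 CPM, with 6 of 12 at 0 in fetal organoids (among them Fabp1, Apoa1, Alpi and Sis) and Reg3g at 0 in Cys. A St3gal4 UMI was found in 53.9% of fetal cells (48.7% to 59.1%) and 42.1% of Cys cells (36.9% to 47.4%), and in 18.5% of WT cells (14.3% to 23.4%). Thinned to 5000 UMIs per cell, the expected shares were 27.1%, 23.9% and 13.8%. The part of enterocyte content in the St3gal4 differences was not tested.

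St3gal6, which shares that substrate, stood at 25.1, 80.3, 95.3, 51.0 and 141 CPM in fetal, WT, het, Bud and Cys. It was highest in Cys, 1.75-fold above WT (1.53 to 2.01), and lowest in fetal organoids, 3.20-fold below WT (2.63 to 3.92). Bud was also lower, 1.58-fold (1.32 to 1.88), a difference that fell below the rule with equal weight for every well (log2 ratio -0.47). St3gal1, which sialylates core 1, was low in all libraries: 15.7, 8.18, 2.96, 20.5 and 3.61 CPM. Bud was 2.50-fold above WT (1.66 to 3.86) and 5.67-fold above Cys (3.38 to 10.0), while het was 2.77-fold below WT (1.42 to 5.72). Bud and fetal organoids thus had the highest levels of St3gal1.

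St3gal5, the GM3 synthase, and St3gal2, which acts on core 1 and on gangliosides, were mainly fetal. St3gal5 stood at 39.4 CPM in fetal and 8.03 in Cys organoids and had 1 or 2 UMIs in each of WT, het and Bud. The ratio to WT was 79.5 in fetal organoids (counting interval 21.7 to 660.0) and 16.2 in Cys (4.201 to 138). St3gal2 had 20.5 CPM in fetal organoids and 0.248, 0.455, 0.714 and 1.41 in WT, het, Bud and Cys, and Cys was 14.6-fold below fetal organoids (6.85 to 37.0).

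Of the enzymes of alpha-2,6 linkage, St6galnac2 held most of the summed level in WT, het, Bud and Cys. St6galnac2, which adds sialic acid to the first sugar of O-glycans, stood at 67.4, 55.1 and 56.4 CPM in WT, het and Bud, 14.3 in fetal and 7.83 in Cys. It was 8.61-fold lower in Cys (6.14 to 12.4) and 4.71-fold lower in fetal organoids (3.67 to 6.09) than in WT. St6gal1, which caps lactosamine of N-glycans, was read at 42.3 CPM in fetal organoids and 15.02 in het, with 2 UMIs in WT, none in Bud and 1 in Cys. In het it was 30.3-fold above WT (counting interval 8.06 to 255), from 66 UMIs of which 9.09% lay in 1 cell. St8sia4, which makes polysialic acid, reached 5.29 CPM in fetal organoids and at most 0.455 elsewhere.

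Of 7 enzymes of N-glycan branching, 4 were called higher and none lower in Cys than in WT, where 17.6% and 22.0% of all genes were. Their median log2 ratio in Cys was 0.62 with WT as reference and -0.06 with het. Mgat2, Mgat3 and Mgat4c were called higher in Cys than in het too, Mgat4a was not, and Mgat5 was called lower. Mgat3, which adds the bisecting N-acetylglucosamine, stood at 97.3 CPM in fetal and 88.7 in Cys organoids and at 26.5, 31.9 and 31.2 in WT, het and Bud. It was 3.67-fold (2.98 to 4.56) and 3.35-fold (2.70 to 4.17) above WT in fetal and Cys organoids. Mgat2, which starts the second antenna, had 117, 75.6, 96.7, 90.7 and 167 CPM in fetal, WT, het, Bud and Cys, 2.21-fold higher in Cys than in WT (1.94 to 2.53). Cys was the highest library for Mgat2 and fetal organoids for Mgat3.

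Mgat4a, which starts a further antenna, was read at 83.9, 124, 262, 115 and 196 CPM in fetal, WT, het, Bud and Cys, 2.12-fold above WT in het (1.90 to 2.36) and 1.58-fold in Cys (1.42 to 1.77). Mgat4c, a relative of these enzymes, was lowest in WT. It stood at 4.26, 3.22, 10.9, 20.2 and 48.2 CPM in fetal, WT, het, Bud and Cys. The folds over WT were 3.39 in het (1.81 to 6.82), 6.28 in Bud (3.48 to 12.3) and 14.96 in Cys (8.58 to 28.5), and WT had 13 UMIs.

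To see which cells held the members in WT, het and Bud, their wells were clustered without the members or the other genes of the pathway, and clusters were named by marker genes. The goblet-like cluster, led by Muc2, Fcgbp and Spink4 and also holding the Paneth markers Lyz1 and Mmp7, had 17 WT, 22 het and 29 Bud wells. Its Bud wells were shallow, with a median of 2955 UMIs against 11385 for the library. Of 42 members measured, 11 were higher in it than in the other wells in all 3 libraries, 26.2%, against 1.99% of all genes, and 2 were lower, against 2.14%. Since wells were clustered on their expression, these counts describe the clusters and are no test. The other wells include a shallow cluster of 21 WT, 67 het and 20 Bud wells, with a median of 2316.5 UMIs. Kcnq1ot1, a long RNA, took 10.6% of its UMIs. Wells with over 2% Kcnq1ot1 made up 7.28% of WT, 17.1% of het and 13.5% of Bud wells. They were left out in an alternative of the comparisons between libraries, not of the clusters. St3gal1 was the most concentrated: 63.6% (45.1% to 79.6%), 61.5% (31.6% to 86.1%) and 58.1% (47.0% to 68.7%) of its UMIs in WT, het and Bud lay in goblet-like wells. Its level there was 145, 56.6 and 321 CPM, against 3.08, 1.18 and 8.90 in the other wells.

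The others higher in goblet-like wells of all 3 libraries were the initiating enzymes Galnt1, Galnt6, Galnt7, Galnt10 and Galnt12, the chaperone C1galt1c1, the branching enzyme Gcnt3, B4galt1, Fut1 and B4galnt2. Galnt12 stood at 111, 134 and 205 CPM in goblet-like wells of WT, het and Bud and at 23.6, 27.7 and 22.0 in the others. Gcnt3 stood at 415, 488 and 225 CPM against 68.1, 158 and 49.7. Some of these sums rest on few cells: 1 cell held 68.6% of the goblet-like C1galt1c1 UMIs of WT and 40.0% of those of Gcnt3. The members lower there in all 3 libraries, B4galt5 and B4galt6, are the lactosylceramide synthases.

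Enterocyte-like wells, led by Fabp1, Sis and Adh1, numbered 17 in WT, 29 in het and 5 in Bud. St3gal4, Gcnt4 and Mgat4a were higher there in all 3 libraries, 3 of 42 measured members against 4.11% of all genes, and none was lower, against 4.15%. St3gal4 stood at 479, 1138 and 603 CPM inside the cluster and at 29.6, 89.3 and 4.35 outside it in WT, het and Bud. The cluster held 54.9% (48.4% to 61.2%), 67.3% (64.4% to 70.2%) and 67.9% (54.0% to 79.7%) of St3gal4 UMIs, though 73.7% of those of Bud were in 1 cell. Het was above WT, and Bud below WT, also among the wells outside the cluster. These outside wells include a cluster led by Dmbt1, Akr1b8 and Ces2a, in which Mgat4a, Gcnt4, Mgat4c and Galnt6 were higher in all 3 libraries, 4 members against 1.66% of all genes, and none was lower, against 3.13%.

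**Figure D4:**
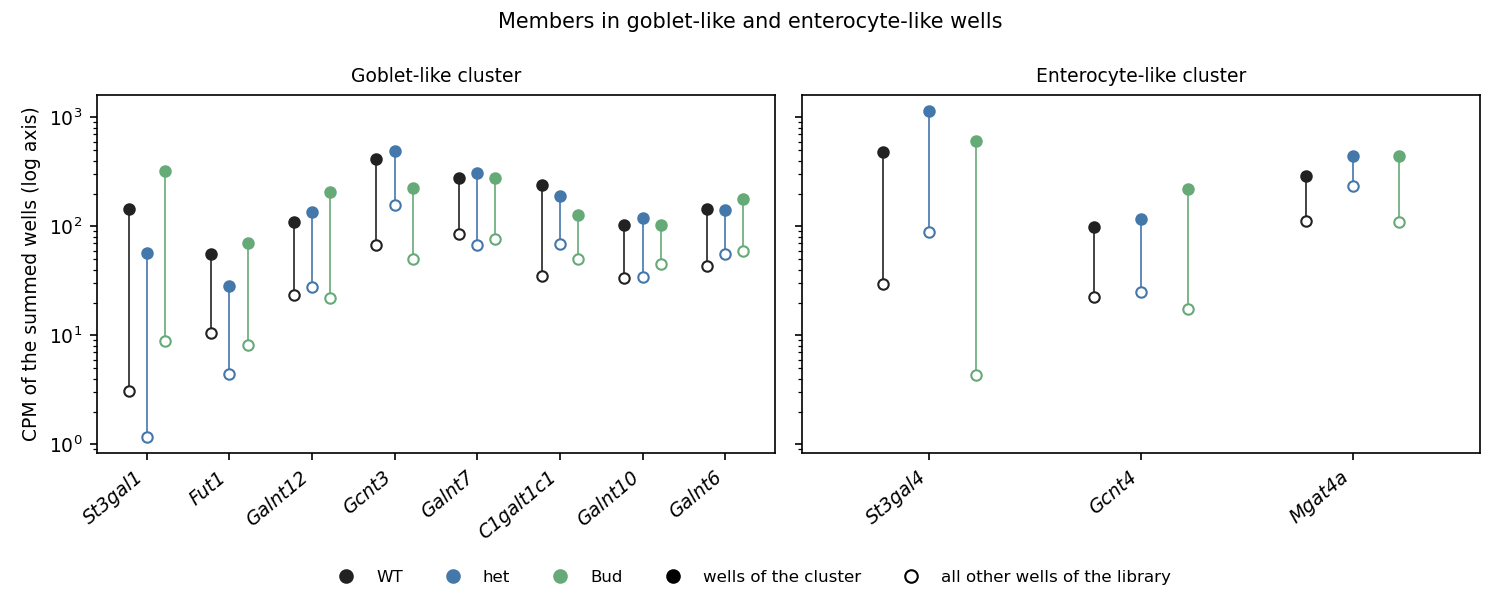
Level in CPM (log y axis) of 8 members in goblet-like wells and 3 members in enterocyte-like wells (filled) and in all other wells of the same library (open), for WT, het and Bud, joined by a line per library. St3gal1 stands at 56.6 to 321 CPM in goblet-like wells and at 1.18 to 8.90 elsewhere, and St3gal4 at 479 to 1138 CPM in enterocyte-like wells and at 4.35 to 89.3 elsewhere.

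Enteroendocrine-like wells, 8 in WT, 8 in het and none in Bud, had higher Gcnt3, B4galt1 and St6galnac2 and lower B4galnt1 and B4galnt2 in both libraries, against 4.3% of genes higher and 2.94% lower. B4galnt2 had 2 UMIs in each library's enteroendocrine-like wells, 42.4 and 42.7 CPM, against 354 and 346 in the other wells. B4galnt1 and B4galnt2 were also the members lower in all 3 libraries in an unnamed cluster led by Neurog3, Clps and Reg4, with 10 WT, 8 het and 29 Bud wells, where 1.88% of all genes were lower. No member was higher there in all 3, against 2.12% of all genes. Fut2, though low, was also found in goblet-like wells, which held 3 of 5 WT UMIs, 10 of 23 het UMIs and 10 of 20 Bud UMIs.

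Genes around the pathway were read from lists of other transferases, sulfotransferases, enzymes of nucleotide sugars, Golgi transporters, glycosidases and mucins. Muc13, a mucin of the brush border, stood at 373, 464 and 317 CPM in WT, het and Bud, 5.42 in Cys and 0 in fetal organoids. Fcgbp, a mucus protein of goblet cells, had 436, 627, 223, 18.1 and 6.48 CPM in WT, het, Bud, Cys and fetal organoids. Muc2, the gel-forming mucin, was read at 70.1 CPM in WT, 179.5 in het, 117 in Bud, 6.22 in Cys and 0 in fetal organoids, with 77.4% of its WT and 81.7% of its Bud UMIs in 1 cell each. Muc1 had 374 CPM in fetal organoids, 2.81 in Cys and none in the others, and Muc20 115 CPM in fetal organoids and at most 0.910 elsewhere. Of 5 mucins measured in Cys against WT, 4 were lower and 1 higher, against 22.0% and 17.6% of all genes. In fetal organoids 3 of 6 were lower and 2 higher, against 22.3% and 29.4%, so the share higher was near that of all genes. Goblet markers as a list summed to 43.8 CPM in fetal and 1366 in Cys organoids, against 1453 in WT, 2406 in het and 2148 in Bud. Muc2 and Fcgbp, both far lower in Cys than in WT, are in this list, so the Cys sum came mostly from its other markers. Muc2, Tff3 and Agr2 were at 0 in fetal organoids and Clca1 in Cys, and the part of goblet cells in the members' differences was not tested.

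Of the enzymes that make nucleotide sugars, 14 of 29 were lower and 5 higher in fetal organoids than in WT, against 22.3% and 29.4% of all genes. In Cys against WT 2 of 28 were lower and 4 higher, against 22.0% and 17.6%. Gmds, one of several enzymes on the paths to GDP-fucose, the donor for every fucosyltransferase above, stood at 48.1 CPM in fetal, 223 in WT, 300.1 in het, 239.6 in Bud and 326 in Cys organoids. It was 6.78-fold higher in Cys than in fetal organoids (5.97 to 7.72). Of 10 Golgi transporters, 3 were higher and none lower in Cys than in WT, against 17.6% and 22.0% of all genes. They included Slc35c1, the carrier of GDP-fucose. Abo, the blood group transferase that acts on the H antigen, had 10.0 CPM in Cys and no UMI in any other library. In het, 1 of 4 sulfotransferases and 3 of 28 nucleotide sugar enzymes were higher than in WT, against 8.43% of all genes. They included Gal3st2, which sulfates galactose, at 22.3 against 9.42 CPM, and Cmah, which converts one sialic acid into another, at 96.5 against 55.3 CPM.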

How the data were processed

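Per the labels' protocols, cells were sorted into plates and read by SORT-seq. The authors deposited, for each library, raw counts of UMIs per gene and well, read counts, and estimated counts of transcripts. Per the submitters' processing notes the tools were STAR 2.6.1, featureCounts 1.5.2 and Seurat 4.1.0, with build GRCm38. How strand and multi-mapping reads were treated was not stated there. The deposited estimated counts of transcripts served as an alternative, and the read counts only to give reads per UMI, 2.55 to 3.29.

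Here, UMIs of wells with at least 1000 UMIs outside the spike-ins were summed per library (4035219 to 5865507 UMIs) and divided by the total, giving CPM. Levels carry exact Poisson and shares exact Clopper-Pearson 95% intervals. Ratios carry exact conditional binomial intervals, and a library at 0 was set to a floor of 3 UMIs. All of these cover counting error only; with 1 library per group no test was made. The calling rule and the intervals were run on simulated Poisson counts, which checks the computation only. Those counts held no variation between cells or libraries, so they do not show how the calls fare under it. Wells of WT, het and Bud were clustered by the Leiden method at a resolution of 1. No doublet caller was run, since single cells were sorted, and wells over 100000 UMIs were left out in an alternative.

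Members with values were chosen per comparison as up to 8 called members in each direction with the largest log2 ratio and at least 20 CPM, the 8 most abundant members, and the most abundant of each enzyme step. Of the other pathway genes, up to 3 per comparison were chosen in that way, and Fut1, Abo, Gal3st2, Cmah and other genes outside these rules were named after their values were seen. The members and lists were chosen with earlier results of these data known. Software was Python 3.11.15 with pandas 2.3.3, numpy 2.4.6, scipy 1.17.1, matplotlib 3.10.9 and leidenalg 0.10.2, and R 4.3.3 with edgeR 4.0.16 and DESeq2 1.42.0 for alternative scaling factors only.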

Additional observations from a re-analysis of the deposited data

How the results depend on the processing

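No paired analysis was possible because each group has 1 library and the labels give no replicate numbers. Of 15 alternatives, 14 were run on the 79 results picked by the naming rule, and no direction reversed in them. With het as reference this covers 39 of the 79. Other folds given above were not rerun. Mgat4a and Gcnt2, higher in Cys than in WT, stood lower in Cys than in het (196 against 262 and 23.3 against 25.5 CPM). B3galt6 was called lower in Cys than in WT and higher than in het. None of the 79 named results lost its call when the well with most UMIs of the gene was left out of each library. That alternative, a total without Rn45s and other cluster resolutions were chosen after seeing the data. The calls lost were B3gnt7 in het and St3gal6 in Bud with equal weight for every well (log2 ratios 0.47 and -0.47), and Fut8 in Bud with median-of-ratios scaling, TMM scaling and equal weight (-0.51, -0.50 and -0.52). With equal weight, 7 members were lower in het and 7 higher in Bud than in WT. Among genes with at least 50 UMIs, 2 members were lower in het, 2 higher in Bud, and 14 lower in Cys than in fetal organoids. At a fold of 2, 2 were lower in Bud and 12 higher in Cys than in WT, and 9 were higher in Cys than in fetal organoids. Against het in place of WT, 16 members were lower and 5 higher in Bud, where 11.7% and 8.94% of all genes were. The alternative scalings shifted the ratio of the scaling totals of 2 compared libraries by at most 0.13 (log2). Over cluster resolutions of 0.5, 1 and 2, goblet-like wells held 45.3% to 63.6% of St3gal1 UMIs and enterocyte-like wells 54.9% to 85.4% of St3gal4 UMIs. Differences between libraries and between conditions cannot be told apart here, and members with a few UMIs in a library have wide intervals.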

Other observations

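Glycosidases, which trim these chains, were also measured. Of 15, 4 were called lower and none higher in Bud than in WT, against 8.67% and 5.79% of all genes. In Cys against WT, which shares the WT library, 4 were lower and none higher, against 22.0% and 17.6%, so the share lower was near that of all genes. Of the other transferases, Ggta1, which makes the alpha-Gal epitope, had 71.1 CPM in fetal and 32.9 in Cys organoids, 0.455 in het and no UMI in WT or Bud.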
